A study of Nicotiana tabacum with 39 samples.

Results

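Among 53725 transcripts counted in greening tobacco leaves, 89 had their highest mean level 30 min after plants were returned from extended darkness to light and were low again by 4 h. They were chosen from levels in CPM, a transcript's count scaled to a common library total, averaged over the 3 libraries of each of 13 harvest groups. A member had its highest mean at 30 min, a mean there of at least 5 CPM, and a mean at least 3 times those at 0 min and at 4 h, with 0.1 CPM added in ratios. Up to 200 transcripts could enter, and all 89 that met the conditions were kept and ranked by the smaller of both ratios, so that rank 1 has the largest. The leaves were from soil-grown Nicotiana tabacum, cultivated tobacco, kept in long days until near maturity. Control leaves had no dark treatment. The 0 min group ended the dark period, for which the labels state no duration. The other 11 groups had been back in light for 5, 10 or 30 min, for 1, 2, 4, 8, 16, 40 or 64 h, or for 6720 min, the last harvest. Each library came from the middle sections of 2 young leaves of each of 3 plants, pooled into 1 biological repeat. There was no parallel series without light, so time in light and time of day cannot be told apart.

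In dark-grown seedlings, light sensed by phytochromes and cryptochromes starts de-etiolation, in which their plastids turn into chloroplasts. The plants used here had instead grown in long days before the dark period. In Arabidopsis the first transcripts to respond include many for regulators of transcription, and short-lived messenger RNAs allow such responses to end soon after they begin. Whether the 89 tobacco transcripts have such roles cannot be read from these data, because the deposited tables carry only NCBI GI numbers and the table of gene names used here holds none (0 matches). No member is therefore named, no sequence is printed, and no list of pathway or cell type genes could be applied. Members are called by their rank, and 4 are given by identifier. In leaf tissue sampled as a whole, more cells that hold a transcript and more RNA per cell cannot be told apart. Library totals ran from 15844109 to 37269515 counts.

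The values that chose the members gave a narrow peak. The median member stood at 4.07 CPM in control, 2.99 CPM at 0 min, 3.33 CPM at 5 min, 5.17 CPM at 10 min and 18.8 CPM at 30 min. It was at 5.19 CPM at 1 h, 4.45 CPM at 2 h and 3.04 CPM at 4 h. Levels at 30 min ranged from 5.03 to 243 CPM, so the set holds both rare and fairly abundant transcripts. The level at 30 min was 3.06 to 144 times that at 0 min, with a median of 5.09, and 3.06 to 141 times that at 4 h, with a median of 5.44. The smaller of both ratios was at least 10 in 14 members. Against control, which entered the rule only as a group that had to lie lower, the level at 30 min was at least 2 times as high in 83 members and at least 5 times in 40. Just inside the fold limit of 3 the lowest ratio was 3.06, and just outside it the highest was 2.97. At the level limit of 5 CPM the lowest member stood at 5.03 CPM and the first transcript left out at 4.98 CPM. A further 44 transcripts that peaked at 30 min with at least 5 CPM had ratios from 2.5 to 3, and 25 members had ratios under 3.5. Another 14 transcripts met both fold limits and the level limit but had a higher mean elsewhere, at 1 h in 8 cases, at 10 min in 5 and at 6720 min in 1.

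**Figure D1:**
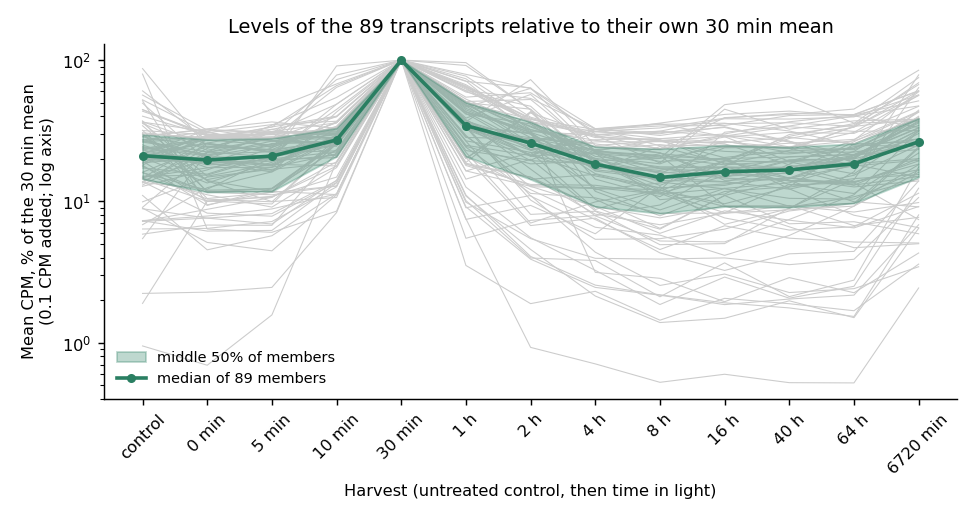
Mean CPM of each of the 89 members in 13 harvest groups as a percentage of its own 30 min mean (log axis, 0.1 CPM added), with harvests in order along the horizontal axis. Grey lines are members, the green line is their median and the band holds the middle 50%; the median lies at 27.2% at 10 min, 34.4% at 1 h and 18.4% at 4 h.

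To measure the peak in libraries that had no part in choosing it, the rule was applied to 2 replicate numbers and the chosen transcripts were read in the libraries of the remaining number. With replicate 1 held out, 125 transcripts were chosen and their median was 2.51 times as high at 30 min as at 0 min. With replicate 2 held out, 99 were chosen and the median was 4.59 times, and with replicate 3 held out, 47 were chosen and it was 8.06 times. In all 3 held-out series the median stood higher at 30 min, by unequal amounts. The mean of the 3 held-out medians was 2.18 ± 0.84 on the log2 scale for 30 min over 0 min and 2.37 ± 0.62 for 30 min over 4 h (SD, n = 3 rotations that share libraries, no test). The highest of the 13 held-out libraries was the 30 min one for 67.2%, 92.9% and 76.6% of chosen transcripts with replicates 1, 2 and 3 held out. Over all transcripts with at least 5 CPM at 30 min the shares were 11.2%, 17.1% and 10.6%. Of the 47 chosen without replicate 3, 43 were also at least 3 times as high at 30 min as at 0 min and at 4 h in replicate 3 itself. For replicate 1 the same held for 46 of 125.

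The 3 libraries at 30 min were far apart. Together the 89 members held 2001, 2602 and 3872 CPM in replicates 1, 2 and 3 at 30 min, which is 0.200%, 0.260% and 0.387% of all counts. At 0 min they held 657, 478 and 537 CPM, a gap that the choice of members fixes. Replicate 3 was the highest of the 30 min libraries for 76 members (85.4%), and replicate 1 was the lowest for 70. Over all 22521 transcripts with at least 5 CPM at 30 min, replicate 3 was the highest for 45.6%. The coefficient of variation between the 3 libraries had a median of 40.7% and ran from 4.01% for rank 69 to 165% for rank 11. All 3 libraries at 30 min lay above all 6 of 0 min and 4 h in 86 members, and above all 36 other libraries in 33. The rule used the means of these same libraries, so both counts describe the choice and test nothing.

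**Figure D2:**
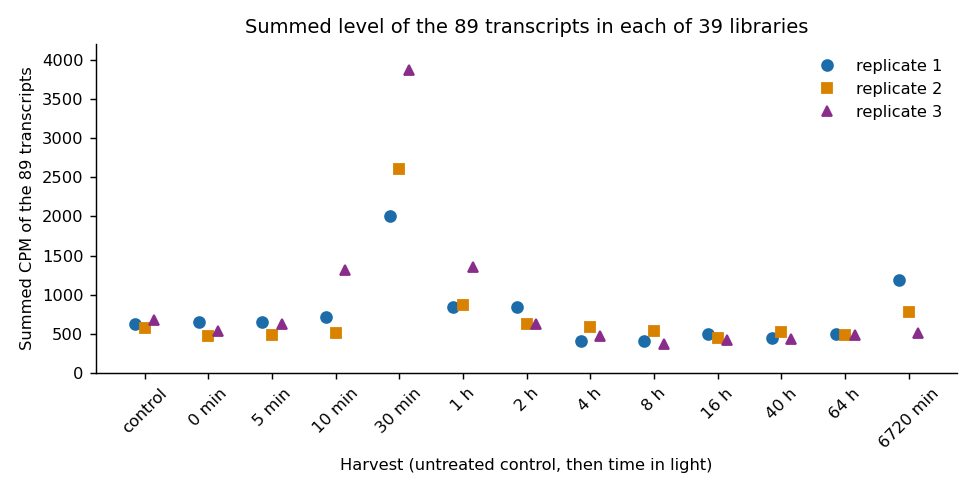
Summed CPM of the 89 members in each of the 39 libraries, by harvest and replicate number. The 30 min libraries stand at 2001, 2602 and 3872 CPM, and replicate 3 is also the highest library at 10 min (1315 CPM) and at 1 h (1356 CPM).

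In 2 members over 75% of the summed CPM at 30 min lay in 1 library. Rank 4 stood at 0.24, 19.1 and 0.53 CPM in replicates 1 to 3 at 30 min, against 0.43, 0.11 and 0.41 CPM at 0 min. Rank 11 stood at 0.86, 84.1 and 1.95 CPM at 30 min, and at 1.74, 16.0 and 51.4 CPM in the control libraries. In both, only replicate 2 was high at 30 min, and replicate 1 lay within the range of the 0 min libraries. Rank 77 was the other member whose 30 min libraries overlapped with those of 0 min or 4 h. Taking the median of 3 libraries in place of the mean gave 76 transcripts, of which 61 are among the 89. Leaving out replicate 3 gave 47, of which 41 are members, and 37 members were kept whichever replicate number was left out.

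Transcripts 698461496 and 698492049 had the largest ratios of the set and were almost without counts in darkness. Transcript 698461496 (rank 1) had 2, 1 and 0 counts at 0 min, 17, 4 and 245 at 10 min and 257, 310 and 897 at 30 min. In CPM this was 0.107, 0.056 and 0 at 0 min, 0.761, 0.236 and 11.5 at 10 min, and 10.5, 19.6 and 36.5 at 30 min. At 10 min replicate 3 alone was far above darkness. Pooled over libraries, and with no CPM added, the level at 30 min was 422 times that at 0 min, where only 3 counts were found. From the means with 0.1 CPM added, as in the rule, it was 144 times. Such ratios ranked this member first, so both are given as a description. The control libraries held 1, 4 and 4 counts, so little of this transcript was found in untreated leaves at their harvest. It was down to 0.033, 1.57 and 3.14 CPM at 1 h and to 0.264, 0.056 and 0 CPM at 2 h. From 1 h to 2 h it fell by 4.11 on the log2 scale (SE 1.33, adjusted p = 0.0323, edgeR's quasi-likelihood test on counts with Benjamini-Hochberg adjustment over all 42181 transcripts tested, as in all tests that follow). That call was lost with DESeq2 (adjusted p = 0.0733), without replicate 2 or 3 of either group, and without replicate 2 or 3 of all groups, with adjusted p up to 0.274 (edgeR where not DESeq2).

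Transcript 698492049 (rank 2) had 0, 0 and 1 counts at 0 min and 40, 41 and 267 at 30 min, which is 1.63, 2.59 and 10.9 CPM. With a mean of 5.03 CPM it was the lowest member at 30 min, and replicate 3 supplied most of that mean. It was slower to leave than rank 1. At 2 h the libraries still stood at 1.48, 1.39 and 1.74 CPM, against 1, 0 and 0 counts in control. Pooled over libraries this was 128 times control (95% exact binomial interval 22.5 to 5095, which covers counting error only), and the difference passed the test (adjusted p = 0.00216, edgeR). At 4 h 4 counts were left over 3 libraries, and at 16 h none was found, where 0 counts over the group allow up to 0.0456 CPM.

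**Figure D3:**
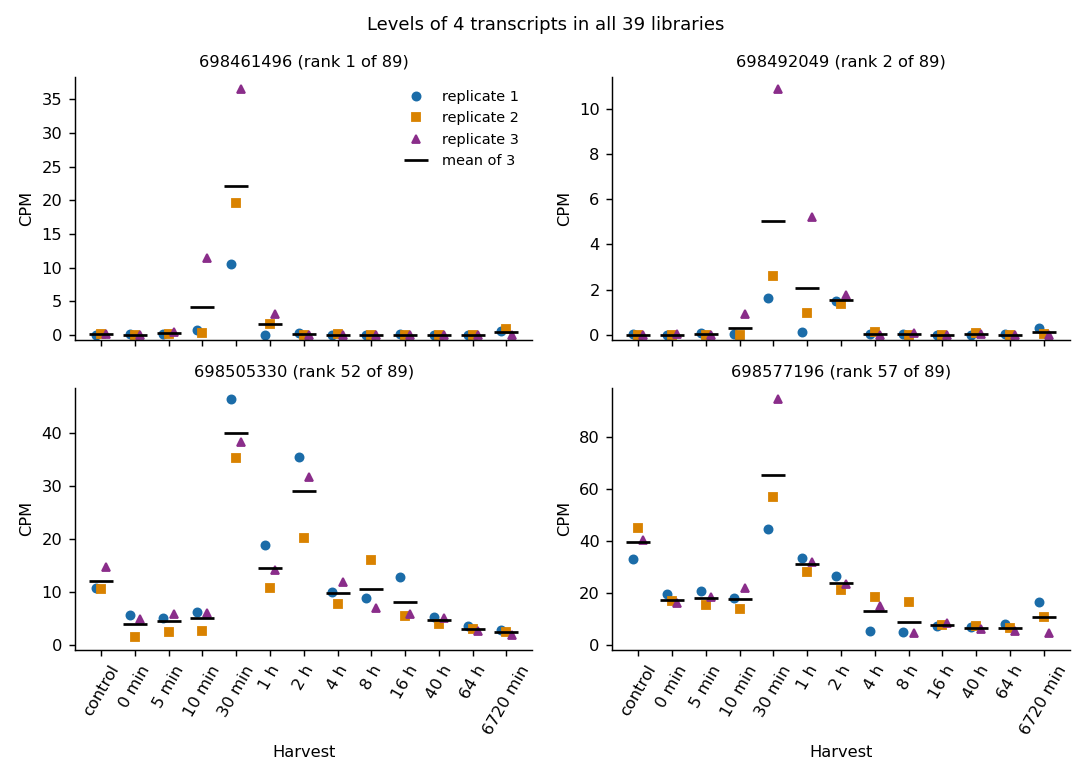
CPM of 4 members in all 39 libraries, by harvest and replicate number, with black bars at the mean of 3. Transcripts 698461496 and 698492049 lie near 0 outside 10 min to 2 h, 698505330 has a second high at 2 h (29.1 CPM after 14.6 CPM at 1 h), and 698577196 stands at 65.4 CPM at 30 min and 39.6 CPM in control.

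Before the peak, little of the rise was in place. Taking the rise of a member as its mean at 30 min minus that at 0 min, a median of 0.82% was present at 5 min and 6.98% at 10 min. Over 10% was present at 10 min in 37 members and over 50% in 5. Rank 26 had reached 89.7% and rank 25 74.1% by then. For rank 26 the libraries at 10 min stood at 6.04, 2.13 and 22.2 CPM, against 8.52, 11.0 and 13.9 CPM at 30 min, so that replicate 3 was higher at 10 min than at 30 min while replicate 2 was near its level at 5 min, 2.22 CPM. In 4 members the highest of all libraries of replicate 3 was the one at 10 min, and in replicates 1 and 2 there was no such member (0 in each).

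The means at 5 and 10 min entered the rule only in that both had to lie below the one at 30 min. Both harvests lie between 0 min, which the rule required to be low, and the peak. The choice therefore favours a rise from 5 to 10 min, and the comparison with all transcripts is not free of it. No member was called between them by edgeR (0 of 89) or DESeq2 (0 of 89), as was the case for all transcripts (0% of 42181 tested). At an unadjusted p below 0.05 there were 18 members, beside 1.89% of all tested, and DESeq2 gave 20, beside 663 of all 42179 that it tested. The median log2 difference of the members was 0.43 and 71 of 89 were above 0. Over all tested the median was -0.01 and 47.2% were above 0. Within replicates the picture was uneven. From 5 to 10 min the median member differed by log2 0.10 in replicate 1, 0.09 in replicate 2 and 0.81 in replicate 3, and 52, 54 and 80 members were higher at 10 min. Without the 10 min library of replicate 3 the median over members was 0.03 (0 called). Without that of replicate 2 the median was 0.57 and 2 members were called (2.25%, beside 0.0117% of all tested). With all libraries of replicate 3 left out the median was 0.07.

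After the peak members were lower again at unequal speed. At 1 h a median of 19.9% of the rise remained, with 5.42% and 33.7% at the quartiles, and at 2 h a median of 5.15%. By 1 h at most 10% was left in 31 members and over 50% in 12. The slowest was rank 39, with 94.9% left at 1 h, where its libraries stood at 6.59, 13.6 and 16.4 CPM beside 8.80, 8.20 and 21.2 CPM at 30 min. Rank 31 had 89.7% left, with 2.04, 4.75 and 7.06 CPM at 1 h and 2.36, 4.48 and 8.30 CPM at 30 min. For both the libraries at 30 min and 1 h overlapped. Rank 6 was among the fast ones, at 39.8, 52.1 and 37.1 CPM at 30 min and 5.11, 3.19 and 3.06 CPM at 1 h. In the median member the step from 30 min to 1 h was log2 -1.12 in replicate 1, -1.55 in replicate 2 and -1.56 in replicate 3. The second highest mean fell at 1 h in 40 members, at 10 min in 24, at 6720 min in 12, at 2 h in 7, in control in 4, and at 5 min and 40 h in 1 each.

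**Figure D4:**
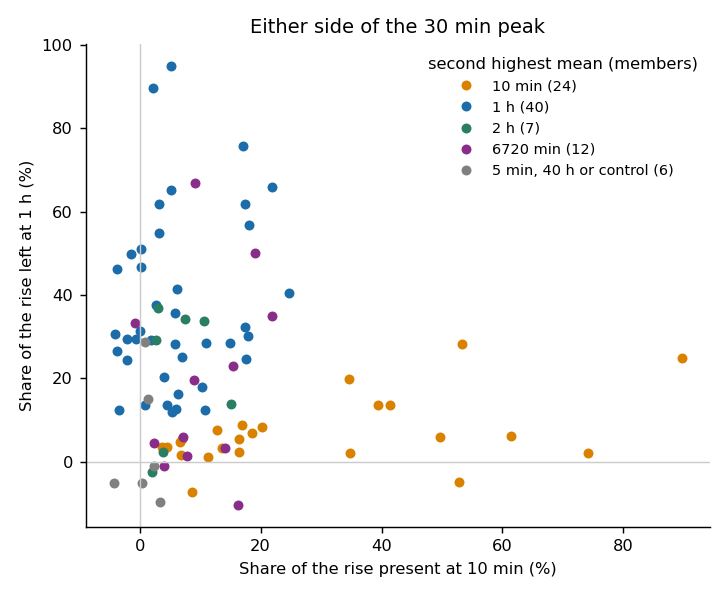
For each of the 89 members, the share of its rise from 0 to 30 min that was present at 10 min (horizontal axis, %) and left at 1 h (vertical axis, %), coloured by the harvest with its second highest mean. In 77 members at most 50% is left at 1 h, and the 5 with over 50% at 10 min all have under 30% left at 1 h.

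The step from 1 h to 2 h was tested. Of 89 members 17 fell (19.1%) and 4 rose (4.49%), where 8.52% of all tested transcripts were lower and 7.2% higher (edgeR, adjusted p below 0.05). The median log2 difference was -0.60 over the members and -0.01 over all tested. Rank 59 fell most among members above 20 CPM at 1 h, from 18.1, 47.0 and 34.6 CPM at 1 h to 13.8, 7.83 and 8.34 CPM at 2 h, by edgeR (log2 -1.74, SE 0.46, adjusted p = 0.00875). All its 2 h libraries lay below those at 1 h. The rank 63 member fell from a mean of 72.0 to 45.6 CPM, by edgeR (log2 -0.64, SE 0.20, adjusted p = 0.0264). Without replicate 2 at 1 h rank 59 no longer passed (adjusted p = 0.0886, edgeR), and rank 63 was lost without replicate 2 or 3 of either group. Over the 15 settings run, rank 59 was lost in 3 (adjusted p up to 0.131, edgeR or DESeq2). Rank 63 was lost in 7 (adjusted p up to 0.282, edgeR or DESeq2). The count of falls rested on single libraries too. Without replicate 3 at 1 h 8 members fell (8.99%, beside 11.1% of all tested), and without replicate 2 at 1 h 7 fell (7.87%, beside 4.18%). Without replicate 2 at 2 h 7 fell (7.87%, beside 7.76%), and without replicate 3 at 2 h 4 fell (4.49%, beside 4.39%). With replicate 2 left out of all groups 2 fell (2.25%, beside 4.89%), and with replicate 3 left out 3 fell (3.37%, beside 4.48%), so the members' share then lay below that of all transcripts. The members' median stayed below 0 in every setting run, the direction that the choice favours.

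The 4 that rose from 1 h to 2 h had a second high. Transcript 698505330 (rank 52) stood at 46.3, 35.3 and 38.4 CPM at 30 min, at 19.0, 10.7 and 14.1 CPM at 1 h, and again at 35.4, 20.3 and 31.7 CPM at 2 h. The step up was log2 1.03 (SE 0.31, adjusted p = 0.0224, edgeR), and in each replicate the 1 h library was the lowest of the 3 harvests. Ranks 29 and 37, which are next to each other in the deposited order, did the same. Rank 29 stood at 9.00, 5.93 and 6.27 CPM at 1 h and 17.0, 9.89 and 18.8 CPM at 2 h (log2 1.15, SE 0.26, adjusted p = 0.0023, edgeR), and rank 37 differed by log2 1.25 (SE 0.27, adjusted p = 0.00177, edgeR). Rank 69 rose from a mean of 1.73 to 3.74 CPM, by edgeR (log2 1.15, SE 0.28, adjusted p = 0.00485). Without replicate 3 of all groups none of the rises passed (0 of 89, beside 3.45% of all tested). The rise of 698505330 was also lost without replicate 2 at 1 h, without replicate 1 or 3 at 2 h, without replicate 1 of all groups and with scaling by library totals only, with adjusted p from 0.0555 to 0.2 over these settings (edgeR). That of rank 69 was lost without replicate 3 at 2 h. With only the 6 libraries compared in the fit, 2 members rose (2.27%, beside 2.43% of all tested). Over the 15 settings run, the rises of ranks 29, 37 and 69 were lost in 1, 2 and 3, with adjusted p up to 0.109, 0.121 and 0.223 (edgeR).

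Untreated leaves give a reference that the rule used only as an upper bound. At 0 min, a group that the rule required to be low, 53 members had a lower mean than control and 36 a higher one, and 12 stood at most at 0.5 times control. Rank 16 was the widest exception, with a mean of 1.41 CPM in control and 7.88 CPM at 0 min. At 2 h 13 members were higher than control (14.6%, beside 15.3% of all tested) and 5 lower (5.62%, beside 12.8%), with a median log2 difference of -0.10 over the members. These shares are near or below those of all transcripts. Without control replicate 1 there were 8 higher (8.99%, beside 10.5%) and 6 lower (6.74%, beside 10.1%). Without replicate 1 of all groups there were 5 higher (5.62%, beside 6.23%) and 4 lower (4.49%, beside 5.32%). The median turned to 0.04 when libraries were scaled by their totals only, a scaling that moved the median of all tested transcripts from 0.02 to 0.17. Among the members higher than control, rank 44 came next after rank 2, at 5.44, 4.61 and 3.03 CPM at 2 h against 0.39, 0.18 and 0.52 CPM in control (log2 3.34, SE 0.32, adjusted p = 3.01e-09, edgeR). Rank 43, the most abundant member, was at 92.5, 73.7 and 51.6 CPM at 2 h and 24.9, 34.9 and 35.2 CPM in control (log2 1.04, SE 0.22, adjusted p = 0.000551, edgeR). That call did not hold with replicate 1 left out of all groups, where edgeR gave a log2 difference of 0.64 and an adjusted p of 0.0854. Its libraries at 30 min had stood at 182, 228 and 319 CPM.

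At 16 h none of the members was higher than control (0 of 89, beside 2.73% of all tested) and 12 were lower (13.5%, beside 3.69%), by edgeR. At an unadjusted p below 0.05 there were 36 members in either direction, beside 20% of all tested. DESeq2 called 0 members higher (beside 3.01% of all tested) and 18 lower (20.2%, beside 4.37%). The median log2 difference was -0.56, with 75 of 89 below 0, beside 48.8% of all tested. The median was -0.43 with scaling by library totals only, where that of all tested was 0.14. Rank 5 stood at 0.80, 0.45 and 0.51 CPM at 16 h against 3.18, 2.46 and 2.88 CPM in control (log2 -2.41, SE 0.52, adjusted p = 0.00348, edgeR), and the libraries of both groups did not overlap. When control leaves were cut is not stated, so time of day and the dark treatment cannot be told apart here. Rank 5 no longer passed without replicate 1 or 2 of all groups (adjusted p = 0.0584 and 0.0615, edgeR). Without replicate 2 at 16 h 7 members were lower (7.87%, beside 2.36% of all tested), and without replicate 3 at 16 h 6 (6.74%, beside 2.18%). Without replicate 1 of all groups 1 member was lower, a share of 1.12% that equals the 1.12% of all tested. Without replicate 2 of all groups 4 were lower (4.49%, beside 2.3%), and without replicate 3 of all groups 5 (5.62%, beside 1.11%).

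At 6720 min the members stood higher again. Against 16 h, which lies whole days before and so has the same clock time, 42 members rose (47.2%, beside 16.1% of all tested) and 1 fell (1.12%, beside 15%), by edgeR at an adjusted p below 0.05. The median log2 difference was 0.89, and 73 of 89 were above 0, beside 53.0% of all tested. The low mean required at 4 h may also favour low levels at 16 h, and so a rise from there, which was not tested. The means rose at each step from 16 h over 40 h and 64 h to 6720 min in 34 members (38.2%). Of the 22521 transcripts with at least 5 CPM at 30 min, 15.7% did so. With each run of adjacent identifiers taken as 1, 36 of 78 units held at least 1 of the 42 called members. Of the first 20 ranks 11 were among the 42. The share of the rise left at 1 h did not separate those that rose, since they were 14 of the 31 members with at most 10% left and 28 of the other 58. Over the members this share and the log2 difference had a Spearman rho of 0.05 (89 members measured in the same libraries, a description).

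Rank 59 showed the largest called difference of an abundant member. It stood at 80.4, 119 and 175 CPM at 30 min, at 5.80, 7.16 and 5.58 CPM at 16 h, and at 148, 59.7 and 31.3 CPM at 6720 min (log2 3.78 for 6720 min over 16 h, SE 0.49, adjusted p = 1.32e-06, edgeR). All 6720 min libraries lay above all at 16 h, and replicate 1 was the highest by far. Rank 3 stood at 0.50, 0.45 and 0.76 CPM at 16 h and 6.26, 2.48 and 0.57 CPM at 6720 min, with overlapping libraries (log2 2.48, SE 0.70, adjusted p = 0.0071, edgeR). Here too replicate 1 was highest and replicate 3 was at the level of 16 h, and without replicate 1 at 6720 min the call was lost (adjusted p = 0.173, edgeR). Over the 15 settings run, the call of rank 3 was lost in 3, with adjusted p up to 0.285 (edgeR or DESeq2). The summed level of the 89 members at 6720 min was 1189, 773 and 516 CPM in replicates 1 to 3, against 500, 445 and 426 CPM at 16 h. Without replicate 1 at 6720 min 15 members rose (16.9%, beside 9.3% of all tested) and 2 fell (2.25%, beside 11.3%), and the median was 0.62. Without replicate 1 of all groups 6 rose (6.74%, beside 4.92%), and without replicate 2 of all groups 27 (30.3%, beside 15.9%). The size of this count thus rests largely on 1 library, while the median stayed above 0 in every setting run, a direction that the choice may favour.

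Against control at 6720 min, 16 members were higher (18%, beside 19.3% of all tested) and 12 lower (13.5%, beside 18.3%), shares no higher than those of all transcripts (edgeR, adjusted p below 0.05). Without replicate 1 at 6720 min 5 were higher (5.62%, beside 13.1%) and 11 lower (12.4%, beside 14.7%). Without replicate 1 of control 7 were higher (7.87%, beside 14.6%) and 10 lower (11.2%, beside 17.0%). Without replicate 1 of all groups 3 were higher (3.37%, beside 9.19%) and 5 lower (5.62%, beside 10.5%). Without replicate 3 of all groups 26 were higher (29.2%, beside 11.2%) and 6 lower (6.74%, beside 10.6%), so the direction of the members' excess over all transcripts turned with the replicate left out. Of the 42 members that rose from 16 h to 6720 min, 14 were above control at 6720 min, 28 were not called and 0 were below it. The same split was not made over all transcripts. Transcript 698505330 was the only member called lower at 6720 min than at 16 h, a call lost without replicate 1 of all groups (adjusted p = 0.0984, edgeR). It stood at 10.8, 10.7 and 14.7 CPM in control and 2.97, 2.58 and 1.99 CPM at 6720 min (log2 -2.28, SE 0.35, adjusted p = 7.26e-06, edgeR). Its means from 16 h on were 8.08, 4.82, 3.10 and 2.52 CPM. Transcript 698577196 (rank 57) was high in untreated leaves, at 33.1, 45.3 and 40.5 CPM, and stood at 16.8, 10.9 and 4.79 CPM at 6720 min (log2 -1.92, SE 0.36, adjusted p = 8.61e-05, edgeR). At 30 min it had reached 44.8, 56.9 and 94.6 CPM, after 19.6, 16.9 and 16.2 CPM at 0 min. The libraries of both transcripts at 6720 min did not overlap with those of control.

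**Figure D5:**
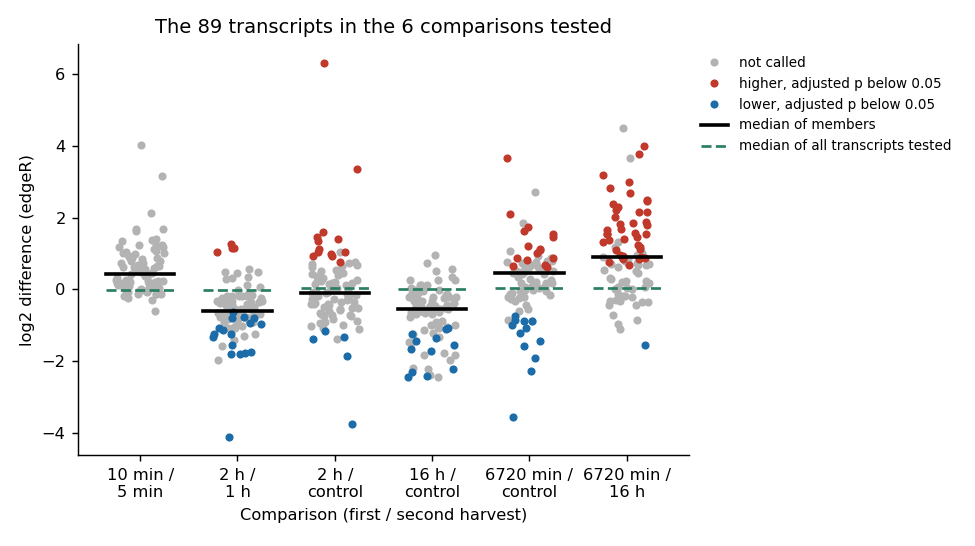
Log2 differences of the 89 members in the 6 comparisons tested by edgeR, each point 1 member, red higher and blue lower at an adjusted p below 0.05, with black lines at the members' median and dashed lines at the median of all 42181 transcripts tested. The members' median is -0.60 for 2 h over 1 h, -0.56 for 16 h over control and 0.89 for 6720 min over 16 h.

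Position in the deposited list was not used by the rule. Identifiers rise through that list, and 20 of the 89 members were next to another member, in 7 runs of 2 and 2 runs of 3, which leaves 78 separate units. Over the 39 libraries the log2 levels of the 11 adjacent pairs had Pearson correlations from 0.92 to 0.98, beside a median of 0.67 over all 3916 pairs of members, which the choice itself made alike. Whether such neighbours are forms of 1 gene or near-identical copies that share reads cannot be read from the counts, so the 89 members are not taken as 89 independent genes. Ranks 71, 78 and 84 form 1 run, with 18.3, 18.8 and 17.8 CPM at 30 min and 46.8%, 49.9% and 50.9% of the rise left at 1 h. Ranks 6, 19 and 20 form the other run of 3, with 43.0, 77.8 and 39.9 CPM at 30 min and 2.4%, 5.5% and 7.5% left. The list also holds 156 neighbours that were not members. Of the 73 with at least 5 CPM at 30 min, 16.4% peaked there, beside 15.4% of all transcripts at that level.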

How the data were processed

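RNA of 39 leaf libraries (13 groups of 3) was sequenced from polyA RNA as single-end reads, per the labels' protocols. The deposited tables hold unscaled counts, whole numbers for each transcript. FastQC 0.10.1, BWA 0.70 and SAMtools 1.0 are listed without roles, per the submitters' processing notes. Reference, counter, strand and the handling of shared reads: not given in the sources used here. Part of the extraction text describes plants of a different experiment and was not used. Deposited GI numbers matched 0 of 79372 genes of the table used for names (assembly ASM71507v2).

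Levels are CPM over library totals. For tests in R 4.3.3 with edgeR 4.0.16, a filter on low counts (filterByExpr) kept 42181 transcripts, all 89 members among them. It asks for the CPM that equals 10 counts at the median library total in at least 3 libraries, and for 15 counts in all. TMM scaling and a quasi-likelihood fit of 13 group means to all 39 libraries followed, and 6 comparisons that leave out 0 min, 30 min and 4 h were tested, with Benjamini-Hochberg adjustment over all 42181 at 0.05. SE is the log2 difference divided by the root of F. The fit was tested on simulated data for 10 min over 5 min. It recovered 64 of 100 changes of 2-fold and 94 of 100 of 4-fold, with 8 false calls. Changes of 2-fold between those harvests can thus go uncalled. Replicates differed beyond sampling noise (chi-square per degree of freedom at least 3.73). The labels give them as separate pools. Same-numbered libraries deviated together at 5 and 10 min (correlations 0.28, 0.59 and 0.37), so replicate numbers pair those 2 groups. DESeq2 1.42.0 was an alternative. Printed by identifier are the 2 members of highest ratio and the 2 with the largest falls from control to 6720 min among called members of at least 5 CPM without overlap. Other members described were chosen after their values were seen. The members and comparisons were chosen with earlier results of these data known.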

Additional observations from a re-analysis of the deposited data

Results flagged for a closer look

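The difference from control was not the same at 16 h and at 6720 min for 43 members, by the direct comparison of both times, with 42 higher and 1 lower at 6720 min. These were 47.2% and 1.12% of members, beside 16.1% and 15.0% of all tested. The choice of members by a low mean at 4 h may favour the higher direction, which was not tested. Replicate 1 at 6720 min was the highest library of that harvest for the summed level, and without it 17 members differed. Of the members 16.9% were then higher and 2.25% lower, beside 9.3% and 11.3% of all tested. The part of this library in the result beyond these values was not tested.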

How the results depend on the processing

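The 6 counts of members called were 0 (5 to 10 min), 21 (1 to 2 h), 18 (2 h and control), 12 (16 h and control), 28 (6720 min and control) and 43 (6720 min and 16 h). RLE factors, library totals only, no filter on low counts and DESeq2 kept each within 1.5 times. With the replicate block they were 0, 25, 21, 14, 30 and 46. From 1 to 2 h 4.49% of members were then higher and 23.6% lower, beside 10.1% and 11.2% of all tested. For 2 h and control it was 14.6% and 8.99%, beside 17.8% and 15.9%. For 16 h and control it was 0% and 15.7%, beside 4.09% and 5.19%. For 6720 min and control it was 20.2% and 13.5%, beside 21.7% and 20.3%, and for 6720 min and 16 h 49.4% and 2.25%, beside 18.9% and 16.8%. Outside 5 and 10 min the replicate numbers did not pair the groups in every library (correlations from -0.13 to 0.32). Fitting only the 6 libraries compared gave 10 (1 to 2 h), 31 (2 h and control) and 26 (16 h and control), and fewer transcripts were then tested. From 1 to 2 h 2.27% of members were higher and 9.09% lower, beside 2.43% and 2.95% of all tested. For 2 h and control it was 17.0% and 18.2%, beside 12.6% and 12.6%. For 16 h and control it was 0% and 31.3%, beside 2.57% and 3.91%. Leaving out 1 library (chosen after seeing the data, not run for 5 min) or 1 replicate number gave 0 to 2, 3 to 24, 9 to 19, 1 to 10, 8 to 32 and 6 to 45, in the same order. For the leave-outs named in the comparisons above, shares of all transcripts are given there. Each of these leave-outs also has fewer samples, and the cause of the ranges was not tested. The 89 members became 200 with a fold limit of 2 (204 before the limit on their number), 35 with 5, 141 with a minimum of 1 CPM and 47 to 125 with a replicate number left out. TMM scaling, an offset of 1, a minimum of 10 CPM and the median gave 75, 69, 64 and 76. The held-out rise stayed within its SD, at log2 2.23 and 2.01 with TMM scaling and an offset of 1. The calls of 698492049 (2 h and control) and of 698505330 and 698577196 (6720 min and control) held in all 15 settings run for each.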
